A study of Mus musculus with 6 samples.

Results

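Secretory products of Paneth cells other than the defensins are described here for 9 genes, Ang4, Itln1, Clps, Pnliprp2, Habp2, Rnase1, Tmed6, Smim38 and C1qtnf1, in small intestinal crypts of mice with and without Fpr2 in the intestinal epithelium. All 9 were found by symbol among the 17526 genes of the deposited table. They were chosen because their counts were lower in knockout crypts, so that difference is given as a description with no test. RNA came from 3 libraries of crypts of Fpr2VKO mice, whose genotype label is a knockout of Fpr2 in the intestinal epithelium, and from 3 libraries of crypts of floxed Fpr2f/f mice, whose genotype label is WT. The labels give neither the driver behind the VKO allele nor strain, age or sex. Nor do they say whether each library is its own animal, so the spread between libraries may be technical. Fpr2 itself was not analysed here, and no library was checked against its genotype label on that gene.

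The crypt is the pocket of epithelium that holds the intestinal stem cells, their dividing progeny and, at its base, the Paneth cells. A Paneth cell fills large granules with antimicrobial proteins and releases them into the crypt lumen. Alpha-defensins and lysozyme are its best known products, but the granules and the same secretory route also carry ribonucleases, lectins and lipid-digesting proteins. Tmed6 and Smim38 encode membrane proteins and not secreted ones, and which crypt cells the 9 transcripts came from was not measured. In bulk RNA, fewer Paneth cells and less transcript per Paneth cell cannot be told apart.

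Total estimated counts ran from 16542933 to 16859902 in VKO libraries. They were 11108511 in flox 1, 16695304 in flox 2 and 12075398 in flox 3. The 16 markers of crypt epithelium summed to between 11409 and 11633 CPM in VKO libraries and between 11125 and 12279 CPM in flox libraries (CPM are counts scaled to a common library size with TMM factors). The labelled tissue carried its markers in all 6 libraries. Single markers in that sum were less even: their log2 fold changes, VKO over flox, ran from -1.17 to 0.60, with 9 negative and 7 positive. The 12 markers of T cells and intraepithelial lymphocytes in the table had a median log2 fold change of -1.37 and summed to between 69.1 and 89.8 CPM in VKO libraries, against 298 CPM in flox 1, 77.0 CPM in flox 2 and 245 CPM in flox 3. Flox 1 and flox 3 stand apart on lymphocyte transcripts and also had the fewest total counts. The part of either in the results was not tested.

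All 9 genes passed the filter on low counts, and every one had a lower level in each VKO library than in any flox library. Among the 12943 genes tested, 10.3% had that arrangement and 6.99% had every VKO library above every flox library, and nothing is read from the members' count because the members were picked from this contrast. Their log2 fold changes, VKO over flox, ran from -1.91 for Clps to -1.33 for Smim38 with a median of -1.71, while the median over all tested genes was -0.013. Together the 9 genes took 0.529% ± 0.164 of all counts in VKO libraries and 1.52% ± 0.436 in flox libraries (SD, n = 3 each). Itln1 alone made up between 68.5% and 73.2% of that sum in all 6 libraries.

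**Figure D1:**
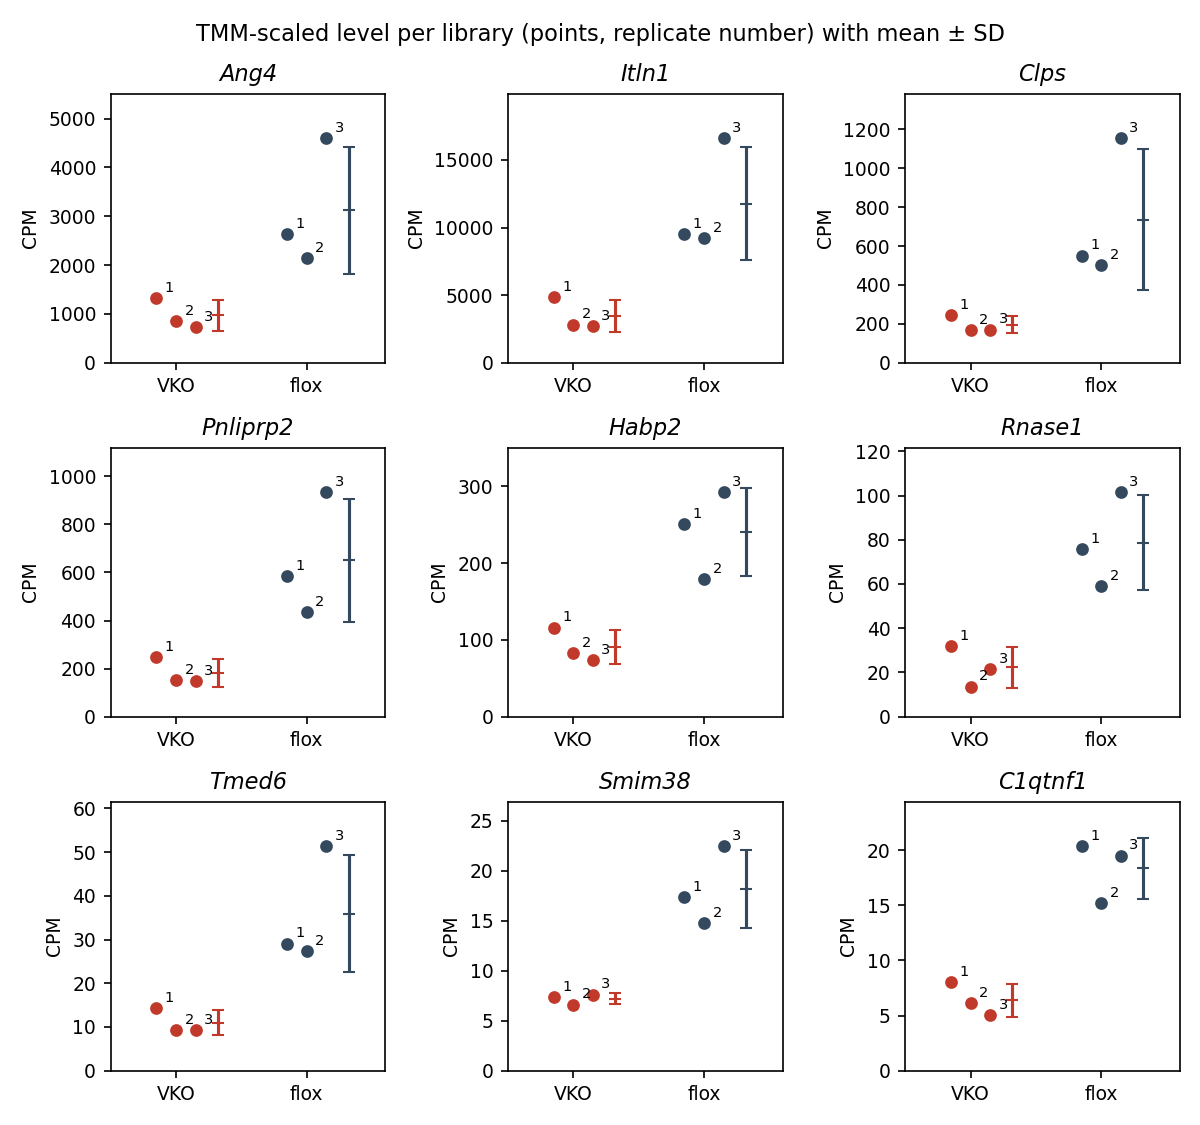
Level of each of the 9 genes (y axis, TMM-scaled CPM on a linear axis from 0) in the 3 VKO and the 3 flox libraries (x axis); points are libraries with their replicate number, and the bar beside them is the mean ± SD. In each panel the highest VKO library lies below the lowest flox library, and flox 2 is the lowest flox library.

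Itln1 encodes intelectin-1, a secreted lectin that binds sugars of microbial surfaces and is made by Paneth and goblet cells. Gene 16429 lies on the minus strand at chr1:171518122-171535294 (GRCm38, GENCODE M21, as for all gene positions here). Its level was 4824, 2818 and 2689 CPM in VKO libraries 1, 2 and 3, against 9516, 9198 and 16596 CPM in flox libraries 1, 2 and 3. VKO 1 was the highest knockout library and flox 3 stood well above the other two flox libraries, with no overlap between the groups. Of its 1092 windows of 50 bases, 11 also occurred in Gm9765. The means were 3444 ± 1197 CPM in VKO and 11770.0 ± 4183 CPM in flox (SD, n = 3 each), a log2 fold change of -1.77 ± 0.36 (SE). Per kilobase of its longest transcript Itln1 had the highest level of the 9 genes, at a mean of 3018 CPM per kb in VKO and 10316 CPM per kb in flox.

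Ang4 encodes angiogenin 4, a ribonuclease of the RNase A superfamily that Paneth cells secrete and that kills bacteria in the mouse gut. It lies on the minus strand at chr14:51763878-51773590 (gene 219033). It had 1320.0, 858 and 725 CPM in VKO libraries 1, 2 and 3, and 2628, 2137 and 4594 CPM in flox libraries 1, 2 and 3. As for Itln1, flox 3 was the highest library and VKO 1 the highest knockout. Means were 968 ± 312 CPM in VKO and 3120 ± 1300 CPM in flox, with a log2 fold change of -1.69 ± 0.35. Ang4 ranked second per kilobase, at 1365 CPM per kb in VKO and 4400 CPM per kb in flox.

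Reads were 50 bases long, so relatives of Ang4 could take or lend reads where they match it over that length. Of 660 windows of 50 bases in the Ang4 transcript, 31, or 4.70%, also occurred in a transcript of another gene, Ang5 or Ang2, and 0 on the opposite strand. The coding sequence of Ang4 was 88.7% identical to that of Ang5, 88.0% to Ang2, 86.9% to Ang6 and 85.5% to Ang over 435 aligned bases. The end of the coding sequence, bases 301 to 435 at chr14:51764055-51764189 on the minus strand (GENCODE M21), is shown because it holds the run that reads cannot assign. Capitals in Ang4 mark the 79 bases, 351 to 429, that Ang5 shares base for base, and capitals in the 3 relatives mark bases that differ from Ang4.
Ang4: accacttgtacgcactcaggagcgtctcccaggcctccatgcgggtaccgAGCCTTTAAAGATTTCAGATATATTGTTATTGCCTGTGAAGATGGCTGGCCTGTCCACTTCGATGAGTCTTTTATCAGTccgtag
Ang5: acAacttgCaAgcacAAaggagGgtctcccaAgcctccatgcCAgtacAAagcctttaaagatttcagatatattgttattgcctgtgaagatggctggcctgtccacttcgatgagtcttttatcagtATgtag
Ang2: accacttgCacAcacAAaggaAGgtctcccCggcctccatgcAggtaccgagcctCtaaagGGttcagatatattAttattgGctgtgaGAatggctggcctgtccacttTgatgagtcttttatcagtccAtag
Ang: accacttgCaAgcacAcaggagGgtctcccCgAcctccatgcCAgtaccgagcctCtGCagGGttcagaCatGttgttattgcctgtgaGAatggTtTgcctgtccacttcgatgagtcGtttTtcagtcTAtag

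In this stretch Ang5 differed from Ang4 at 13 bases, all outside the capital run, Ang2 at 17 and Ang at 23. Ang5 held 0, 0 and 1.13 estimated counts in VKO libraries 1, 2 and 3, and 4.41, 0 and 4.24 in flox libraries 1, 2 and 3. Ang4 held 12946.87 estimated counts in VKO 3, and 30088.59 and 46655.76 in flox 1 and flox 3, and these were the 3 libraries where its value was not whole. In each of the 6 libraries the sum of Ang4 and Ang5 was whole within 0.01. The log2 ratio of group means was -1.69 for Ang4 alone and -1.69 for Ang4 with all Ang5 counts added.

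Rnase1 encodes the pancreatic-type ribonuclease, the other RNase A superfamily gene among the 9, and lies on the minus strand at chr14:51144998-51146785 (gene 19752), 617.1 kb from Ang4. It had 31.9, 13.6 and 21.7 CPM in VKO libraries 1, 2 and 3, and 75.8, 58.9 and 101 CPM in flox libraries 1, 2 and 3. VKO 2 was the lowest library for Rnase1, and the ratio of the highest to the lowest knockout library, 2.35, was the largest of the 9 genes. Means were 22.4 ± 9.20 CPM in VKO and 78.7 ± 21.4 CPM in flox, with a log2 fold change of -1.81 ± 0.30. None of its 943 windows of 50 bases occurred in another gene's transcript.

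Of the 20 other genes listed for the RNase A superfamily and its inhibitor, 12 were in the table and 3 were high enough to test. By edgeR's quasi-likelihood test with Benjamini-Hochberg adjustment, 0 of them passed. Over the 12943 genes that test called 0.0155%, of which 0.00773% lower in VKO and 0.00773% higher. Without adjustment, p was under 0.05 for 2 of the 3, both lower, where 13.7% of all tested genes came that far, 9.63% lower and 4.09% higher. DESeq2 called 2 of the 3, both lower, and 2.64% of all tested genes, with 2.35% lower. Rnase4, a secreted ribonuclease that prefers uridine, averaged 103 ± 7.68 CPM in VKO and 235 ± 77.3 CPM in flox (log2 -1.19 ± 0.24, adjusted p = 0.0952 by edgeR and 0.000399 by DESeq2). Ang, angiogenin, averaged 27.6 ± 3.53 CPM in VKO and 46.6 ± 9.77 CPM in flox (log2 -0.75 ± 0.19, adjusted p = 0.140 by edgeR and 0.0313 by DESeq2). Rnase4 and Ang are overlapping genes, and the sum of their estimated counts was whole within 0.01 in 5 of 6 libraries, so their split is uncertain; the log2 ratio of group means of the sum was -1.10. Rnh1, the ribonuclease inhibitor of the cytosol, had a log2 fold change of -0.36 ± 0.18 (adjusted p = 0.402 by edgeR).

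Clps and Pnliprp2 act together in the digestion of fat: Clps encodes colipase, the cofactor that anchors lipase to bile-coated droplets, and Pnliprp2 encodes pancreatic lipase-related protein 2, which cleaves phospholipids, galactolipids and triglycerides. Clps, on the minus strand at chr17:28558149-28560766 (gene 109791), had 246, 169 and 170.2 CPM in VKO libraries 1, 2 and 3, and 551, 501 and 1154 CPM in flox libraries 1, 2 and 3. Flox 3 was more than the sum of the other two flox libraries, and the groups did not overlap. Its means were 195 ± 44.1 CPM in VKO and 735 ± 364 CPM in flox, and its log2 fold change was -1.91 ± 0.33. Without flox 3 that log2 fold change was -1.40.

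Pnliprp2, on the plus strand at chr19:58759719-58777534 (gene 18947), had 247, 151 and 148 CPM in VKO libraries 1, 2 and 3, and 584, 435 and 933 CPM in flox libraries 1, 2 and 3. The order of the libraries was again VKO 1 above the other knockouts and flox 3 above the other flox libraries. Its means were 182 ± 56.7 CPM in VKO and 651 ± 256 CPM in flox, with a log2 fold change of -1.84 ± 0.31. Neither gene had a 50-base window in common with another gene's transcript, over 562 windows for Clps and 1523 for Pnliprp2.

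Other lipases and phospholipases were read as a list. Of 14 genes listed for pancreatic-type lipid digestion and its relatives, 9 were in the table and 6 were tested, with 0 passing over all genes by edgeR in either direction, 1 called by DESeq2, and 2 lower at an unadjusted p under 0.05. Among all tested genes DESeq2 called 2.64%, and 9.63% were lower without adjustment. The median log2 fold change of the 6 was -0.32. The 3 most abundant were Pla2g5, a secreted phospholipase A2 (log2 -0.19 ± 0.23, adjusted p = 0.788 by edgeR), Lipg, endothelial lipase (0.27 ± 0.21, adjusted p = 0.624), and Lipa, the lysosomal acid lipase (-0.094 ± 0.26, adjusted p = 0.919). Pla2g5 and Lipa take a positive sign when libraries are scaled on their totals alone.

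Clps, Pnliprp2 and Rnase1 are also made in bulk by pancreatic acinar cells, so the acinar markers were read in every library. Of 34 acinar genes listed, 16 were in the table, and they summed to between 14.6 and 24.7 CPM in VKO libraries and between 17.5 and 26.3 CPM in flox libraries. Of the 16, 10 stayed below 1 CPM in all 6 libraries. Ctrb1, chymotrypsinogen B, reached at most 2 counts in any library, Cel, the bile salt-stimulated lipase, at most 1, and Gp2, the zymogen granule membrane glycoprotein, at most 2. Clps held at least 3041 counts in the same libraries. Reg1, the most abundant acinar marker, had a log2 fold change of 0.56 ± 0.39 (adjusted p = 0.572 by edgeR), and Cela1, elastase 1, one of -0.067 ± 0.34 (adjusted p = 0.958).

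Pnliprp1, pancreatic lipase-related protein 1, was the acinar marker whose level differed most. It lies 15.6 kb before Pnliprp2 on chromosome 19 and averaged 1.99 ± 0.0422 CPM in VKO and 6.51 ± 2.55 CPM in flox (log2 -1.70 ± 0.32). Its adjusted p was 0.0946 by edgeR, above the threshold of 0.05, and 0.000804 by DESeq2.

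Habp2 encodes hyaluronan-binding protein 2, a secreted serine protease with kringle domains that activates factor VII and pro-urokinase in plasma. It lies on the plus strand at chr19:56287137-56320822 (gene 226243). It had 116, 82.9 and 73.5 CPM in VKO libraries 1, 2 and 3, and 251, 179 and 292 CPM in flox libraries 1, 2 and 3. Flox 1 and flox 3 were nearer each other than for Itln1, Ang4 or Clps, and the groups did not overlap. Means were 90.8 ± 22.3 CPM in VKO and 241 ± 57.5 CPM in flox, with a log2 fold change of -1.41 ± 0.23.

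The 3' end of Habp2 overlaps the last exons of Nrap, which runs the other way, over 268 exonic bases, or 8.4% of the exonic bases of Habp2. The values of Habp2 were not whole in any library, and in all 6 the sum of Habp2 and Nrap was whole within 0.01. Nrap, a muscle gene, held 132.98, 123.3 and 124.83 estimated counts in VKO libraries 1, 2 and 3, and 79.53, 110.35 and 63.97 in flox libraries 1, 2 and 3. With all Nrap counts given to Habp2, its log2 ratio of group means was -1.34, against -1.41 without them.

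C1qtnf1 encodes C1q and TNF related protein 1, a secreted protein with a collagen-like stalk and a globular C1q head. It lies on the plus strand at chr11:118428203-118449963 (gene 56745). It had 8.01, 6.12 and 5.04 CPM in VKO libraries 1, 2 and 3, and 20.3, 15.2 and 19.5 CPM in flox libraries 1, 2 and 3. It was the member whose highest flox library was flox 1 and not flox 3. Means were 6.39 ± 1.51 CPM in VKO and 18.4 ± 2.75 CPM in flox (log2 -1.52 ± 0.23). The antisense gene Gm11747 overlaps 20.5% of its exonic bases, and since the strand use of the kit is not stated, its reads cannot be told apart from those of C1qtnf1 there.

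Relatives of Habp2 and C1qtnf1 were read in the same way. Of 22 genes listed for kringle and coagulation proteases and their inhibitors, 10 were tested and 0 passed by edgeR in either direction or were called by DESeq2, with 3 lower at an unadjusted p under 0.05. Among all tested genes DESeq2 called 2.64%, and 9.63% were lower without adjustment. The median log2 fold change of the 10 was -0.62. Hgfac, the protease that activates hepatocyte growth factor, averaged 52.7 ± 7.30 CPM in VKO and 82.7 ± 14.2 CPM in flox (log2 -0.65 ± 0.18, adjusted p = 0.167 by edgeR). Serpinf2, the plasmin inhibitor, had -0.98 ± 0.29 (adjusted p = 0.190) and F3, tissue factor, 0.22 ± 0.31 (adjusted p = 0.815). Of 21 C1q and TNF related genes, 6 were tested, 0 passed by edgeR or DESeq2, 1 was lower at an unadjusted p under 0.05, and the median was -0.23. C1qtnf12 had a log2 fold change of -0.18 ± 0.22 (adjusted p = 0.772), Erfe, the erythroid hormone that lowers hepcidin, 0.12 ± 0.17 (adjusted p = 0.814), and C1qtnf6 -0.27 ± 0.35 (adjusted p = 0.792).

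Tmed6 belongs to the p24 family, membrane proteins that gather secretory cargo into vesicles between the endoplasmic reticulum and the Golgi. It lies on the minus strand at chr8:107061476-107065644 (gene 66269). It had 14.3, 9.34 and 9.29 CPM in VKO libraries 1, 2 and 3, and 29.1, 27.3 and 51.3 CPM in flox libraries 1, 2 and 3. As for Itln1, flox 3 lay far above flox 1 and flox 2, and VKO 1 above the other knockouts. Of its 822 windows of 50 bases, 13, or 1.58%, also occurred in Gm14755. Means were 11.0 ± 2.87 CPM in VKO and 35.9 ± 13.4 CPM in flox, with a log2 fold change of -1.71 ± 0.28.

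Most cells use the other p24 genes. Of 10 listed, 9 were tested, with 0 passing by edgeR in either direction or called by DESeq2 and 2 lower at an unadjusted p under 0.05, and their median log2 fold change was -0.09. Over all tested genes DESeq2 called 2.64%, and 9.63% were lower without adjustment. Tmed2, the most abundant, averaged 316 ± 17.2 CPM in VKO and 332 ± 9.19 CPM in flox (log2 -0.070 ± 0.16, adjusted p = 0.900 by edgeR). Tmed10 had -0.094 ± 0.16 (adjusted p = 0.854) and Tmed7 -0.088 ± 0.15 (adjusted p = 0.858), and all 3 turn positive with scaling on library totals alone, where the median of all genes is 0.205. Per gene the p24 log2 fold changes ran from -1.16 to 0.22; Tmed6 was picked for its difference, so it is not set against them.

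Further along the secretory route, of 28 COPII, COPI and early secretory transport genes, all tested, 0 passed by edgeR in either direction, DESeq2 called 2 and 4 were lower at an unadjusted p under 0.05, with a median log2 fold change of -0.16. Surf4, a cargo receptor of the endoplasmic reticulum, had -0.30 ± 0.19 (adjusted p = 0.530), Sec31a of the COPII coat -0.17 ± 0.17 (adjusted p = 0.721) and Copa of the COPI coat -0.13 ± 0.17 (adjusted p = 0.799). Of 19 genes listed for granule formation and exocytosis, 17 were tested, 0 passed by edgeR in either direction, 10 were lower at an unadjusted p under 0.05, DESeq2 called 3 and the median was -0.70. For both lists the shares over all tested genes were 2.64% called by DESeq2 and 9.63% lower without adjustment. Zg16, a zymogen granule lectin of goblet cells, averaged 1200 ± 247 CPM in VKO and 1950 ± 841 CPM in flox (log2 -0.70 ± 0.31, adjusted p = 0.359). Xbp1, the transcription factor of the unfolded protein response, had -0.35 ± 0.21 (adjusted p = 0.493), and Stxbp2, a syntaxin-binding protein of exocytosis, -0.012 ± 0.15 (adjusted p = 0.982).

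Bhlha15 and Rab3d were named after their values were seen. Bhlha15, or Mist1, the transcription factor that scales up granule secretion, averaged 37.2 ± 19.2 CPM in VKO and 109 ± 19.9 CPM in flox (log2 -1.55 ± 0.31, adjusted p = 0.0952 by edgeR and 0.000128 by DESeq2). Rab3d, a small GTPase on secretory granules, averaged 86.6 ± 28.4 CPM in VKO and 197 ± 52.2 CPM in flox (log2 -1.18 ± 0.26, adjusted p = 0.119 by edgeR and 0.00143 by DESeq2).

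**Figure D2:**
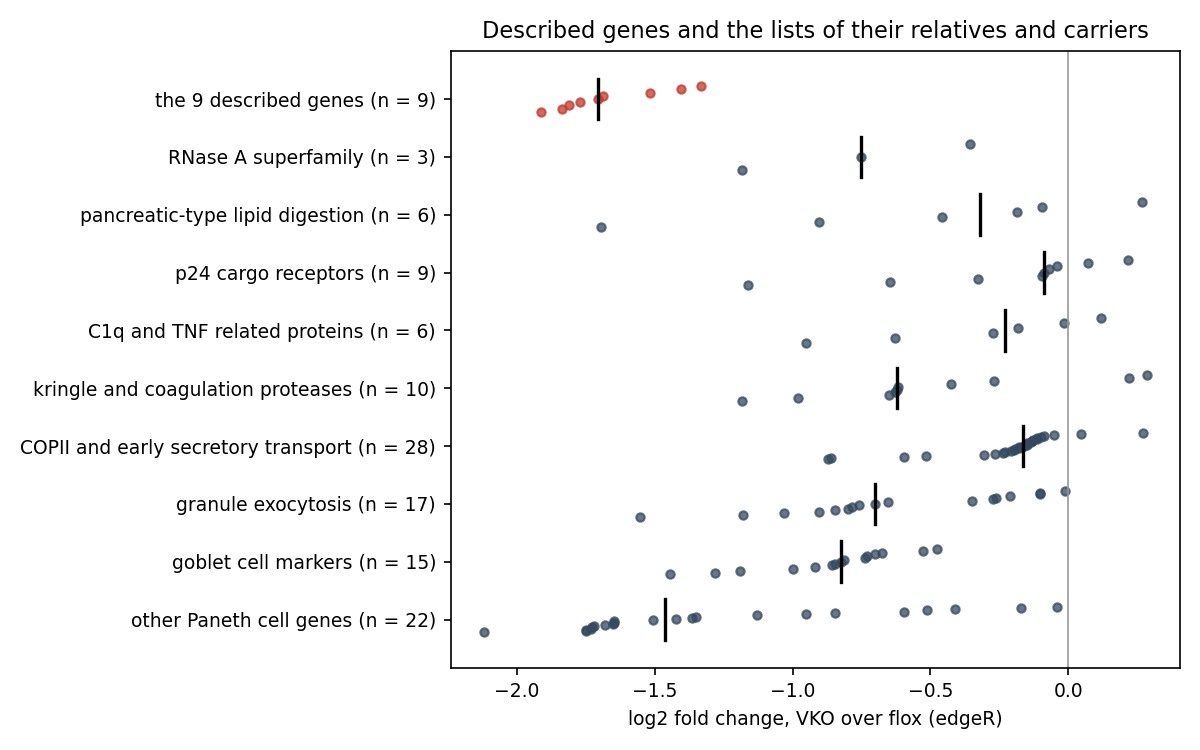
Log2 fold change, VKO over flox, from edgeR (x axis) for the 9 described genes (top row) and for each tested gene of 9 lists (rows below); points are genes and black bars are medians. The 9 described genes lie between -1.91 and -1.33, the p24 list has a median of -0.09 and the list of other Paneth cell genes one of -1.46. The 9 genes were picked for a low value on this axis, so their distance from the lists is not a result.

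Smim38 encodes a small integral membrane protein whose function is not well known. It lies on the minus strand at chr7:145205825-145208119 (gene 100040049), inside the span of Tpcn2, with which it shares no exon. It had 7.39, 6.60 and 7.61 CPM in VKO libraries 1, 2 and 3, and 17.4, 14.8 and 22.5 CPM in flox libraries 1, 2 and 3. Its 3 knockout libraries were the closest together of all 9 genes, with a ratio of highest to lowest of 1.15. Means were 7.20 ± 0.533 CPM in VKO and 18.2 ± 3.91 CPM in flox, and the log2 fold change of -1.33 ± 0.21 was the smallest in size of the 9.

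The order of the 9 genes by level per kilobase in flox libraries was Itln1, Ang4, Clps, Pnliprp2, Habp2, Rnase1, Tmed6, Smim38 and C1qtnf1. Their means in that order were 3018, 1365, 319, 116, 32.3, 22.6, 12.6, 8.10 and 2.52 CPM per kb in VKO libraries, and 10316, 4400, 1203, 414, 85.5, 79.3, 41.2, 20.5 and 7.25 CPM per kb in flox libraries, with the same order in both groups. Habp2 and Rnase1, neighbours in that order, overlapped in both groups: Habp2 ran from 26.1 to 41.2 CPM per kb in VKO libraries and from 63.5 to 104 in flox libraries, and Rnase1 from 13.7 to 32.2 in VKO libraries and from 59.4 to 102 in flox libraries. Tmed6, at 10.7 to 16.4 CPM per kb in VKO libraries, overlapped Rnase1 there.

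Within each group the libraries followed an order that was common in part. The genes were chosen as falling along with Paneth transcripts, which can share such an order, and a high flox 3 enlarges the fall. The order is therefore not independent of the choice and is a description only. Flox 2 was the lowest flox library for 9 of 9 genes and flox 3 the highest for 8 of 9, where 35.3% and 22.2% of all tested genes had those libraries lowest and highest. VKO 1 was the highest knockout library for 8 of 9 genes, where 37.0% of all tested genes had it highest, and Smim38 was the exception. The lowest knockout library was VKO 3 for 6 genes and VKO 2 for 3, where 33.4% and 33.0% of all tested genes had those libraries lowest. The 9 genes share their libraries, so these are not 9 independent observations. As the root mean square difference of centred log2 CPM over the 6 libraries, the closest of the 36 pairs among the 9 genes was Itln1 with Tmed6, at 0.088, and the median pair was at 0.264. Rnase1 and Smim38 were the farthest apart, at 0.418.

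**Figure D3:**
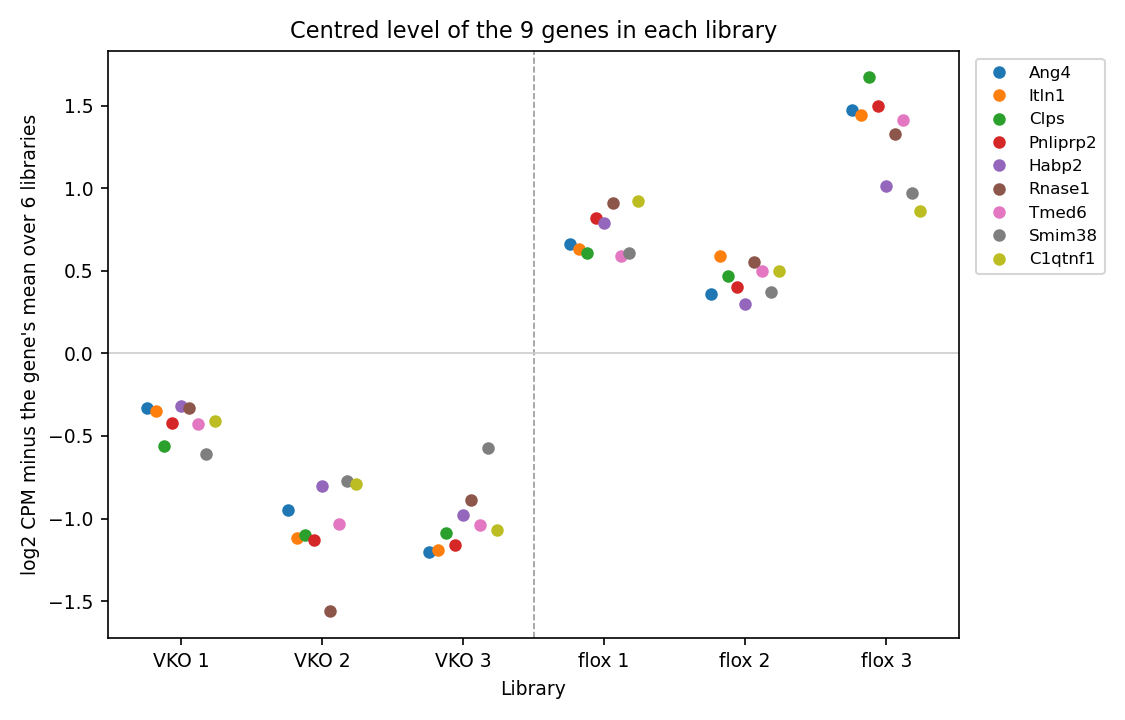
Log2 CPM of each gene minus its mean over the 6 libraries (y axis) in the VKO and flox libraries (x axis), with 1 colour per gene; the dashed line divides the groups. In VKO 1 all genes lie between -0.61 and -0.32 and in flox 2 between 0.30 and 0.59, while Rnase1 in VKO 2 lies lowest at -1.56.

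By the same measure, each gene was set against 9668 other genes whose log2 CPM averaged 3 or more. The 3 nearest are given for each. The measure takes in the difference between VKO and flox libraries, from which the 9 genes were picked, so a gene with no such difference must lie far from them and the distances are a description only. For Ang4 the nearest were Lyz1, the lysozyme of Paneth granules, at 0.036, Mptx2, a Paneth cell pentraxin, at 0.124, and Defa22, an alpha-defensin, at 0.127. For Itln1 they were Lyz1 at 0.105, Bambi, a decoy receptor for TGF-beta family ligands, at 0.134 and Fzd9, a Wnt receptor of the Frizzled family, at 0.142. For Pnliprp2 they were Lyz1 at 0.113, Defa38 at 0.136 and Defa22 at 0.174.

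The nearest to Clps were the alpha-defensin genes Defa38, Defa43 and Defa29, at 0.060, 0.068 and 0.096. The nearest to Tmed6 were Defa22 at 0.078, Defa17 at 0.088 and Bambi at 0.091. Lyz1 or an alpha-defensin held 11 of the 27 places, and reads of near-identical defensin copies could be shared among them.

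For Habp2, C1qtnf1, Rnase1 and Smim38 neither Lyz1 nor an alpha-defensin was among the 3 nearest. Habp2 was nearest to Cxxc5, a CXXC zinc finger gene, at 0.088, then Chrm1, a muscarinic acetylcholine receptor gene, at 0.100, and Lbh at 0.110. C1qtnf1 was nearest to Fam222a at 0.136, then Chrm1 at 0.147 and Lbh at 0.151. Rnase1 was nearest to Reg4, a secreted lectin of deep secretory and enteroendocrine cells, at 0.220, then Fzd9 at 0.239 and Pla2g2f, a secreted phospholipase A2, at 0.244. Smim38 was nearest to Dio1, the deiodinase that activates thyroid hormone, at 0.116, then Hpd, an enzyme of tyrosine breakdown, at 0.120 and Nupr1, a stress-induced nuclear protein gene, at 0.124. These genes were found by their likeness to genes picked for a low level in VKO crypts, so their own difference between the groups is not evidence of one.

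Each gene was also expressed per 1000 counts of Lyz1 in its own library, which takes no scaling between libraries. Lyz1 was chosen for this after the likeness was seen in the same 6 libraries, and both it and the 9 genes were lower in VKO, so a narrow quotient restates that choice and nothing is tested by it. Lyz1 had 15471, 10536 and 8623 CPM in VKO libraries 1, 2 and 3, and 31453, 27020 and 56446 CPM in flox libraries 1, 2 and 3, a ratio of highest to lowest of 6.55. Ang4 stood at 85.3, 81.4 and 84.0 per 1000 Lyz1 counts in VKO libraries 1, 2 and 3, and at 83.5, 79.1 and 81.4 in flox libraries 1, 2 and 3. As a description, the highest of these 6 quotients was 1.08 times the lowest.

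Itln1 averaged 297 ± 25.6 per 1000 Lyz1 counts in VKO and 312 ± 24.7 in flox. Clps averaged 17.2 ± 2.19 in VKO and 18.8 ± 1.49 in flox, and Pnliprp2 15.8 ± 1.43 in VKO and 17.1 ± 1.31 in flox. Tmed6 averaged 0.962 ± 0.102 in VKO and 0.948 ± 0.0541 in flox. The ratio of highest to lowest quotient over the 6 libraries was at most 1.30 for these 4 genes and Ang4, and 1.65 for Habp2, 1.88 for C1qtnf1, 1.95 for Rnase1 and 2.22 for Smim38. Habp2 averaged 7.97 ± 0.523 in VKO and 6.59 ± 1.40 in flox, and Smim38 0.662 ± 0.205 in VKO and 0.499 ± 0.0875 in flox.

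**Figure D4:**
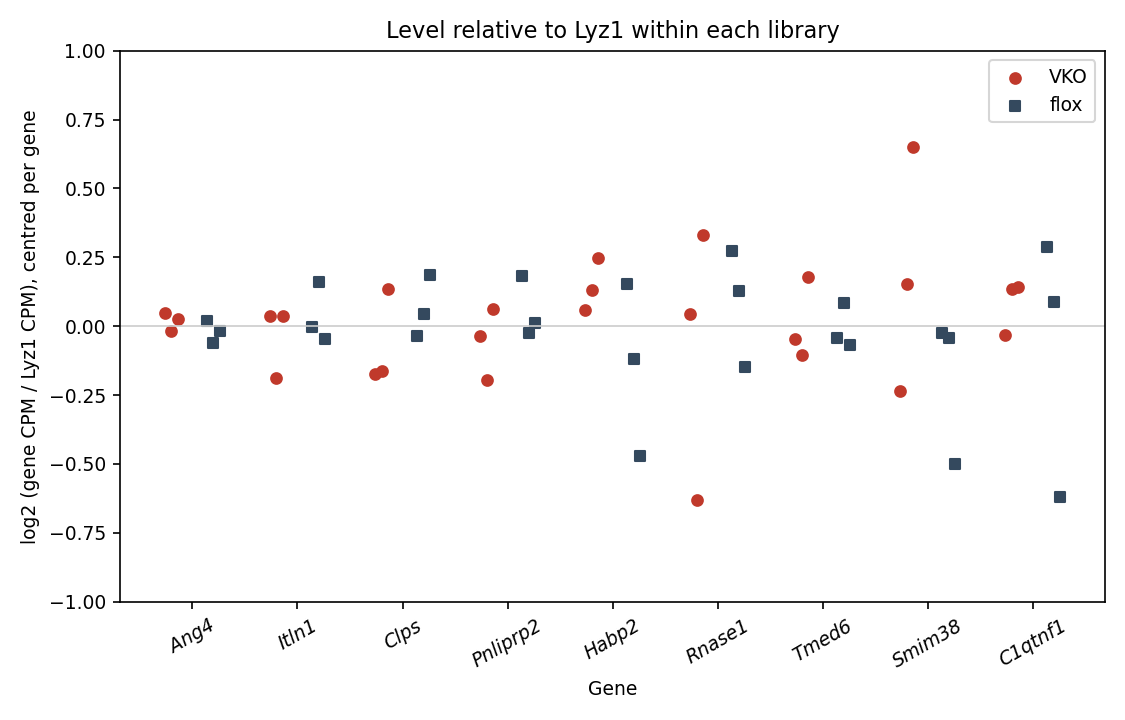
Log2 of each gene's CPM over that of Lyz1 in the same library, minus the gene's mean over the 6 libraries (y axis), for VKO (circles, left) and flox (squares, right) libraries of each gene (x axis). The 6 libraries of Ang4 lie closest together, between 79.1 and 85.3 per 1000 Lyz1 counts, and those of Smim38 are the most spread, between 0.398 and 0.883.

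Markers of secretory cell types had negative log2 fold changes as well. The 22 other Paneth cell genes listed, all tested, had a median log2 fold change of -1.46 and ran from -2.12 to -0.04. By edgeR 0 passed in either direction, DESeq2 called 17, and 19 were lower at an unadjusted p under 0.05. Over all tested genes DESeq2 called 2.64%, with 2.35% lower, and 9.63% were lower without adjustment. They summed to between 31023 and 44587 CPM in VKO libraries and between 82635 and 155042 CPM in flox libraries. Defa17 and Defa24, alpha-defensins, had -1.68 ± 0.35 and -1.75 ± 0.36 (adjusted p = 0.0974 by edgeR for each). Not all abundant genes of this list differed that much. Reg3b and Reg3g, named after their values were seen, had -0.041 ± 0.31 and -0.17 ± 0.27 (adjusted p = 0.972 and 0.835 by edgeR). The 15 goblet cell markers, some of them shared with Paneth cells, had a median of -0.82, with 0 passing by edgeR in either direction and 7 called by DESeq2, and 13 were lower at an unadjusted p under 0.05. They summed to between 8769 and 13796 CPM in VKO libraries and between 14968 and 22216 CPM in flox libraries. Fcgbp and Clca1, proteins of the mucus layer, had -0.68 ± 0.29 (adjusted p = 0.344 by edgeR) and -0.53 ± 0.32 (adjusted p = 0.502). Earlier results of these data were known when these lists were written, so their direction is no independent support, and their part in the values of the 9 genes was not tested.

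Leaving out libraries changed the size of the differences. Their direction could hardly change, because every VKO library lay below every flox library for all 9 genes, so nothing is read from it. Without flox 1 and flox 3, the median log2 fold change of the 9 genes was -1.20, against 1 flox library whose spread is then unmeasured. Without flox 2 and VKO 1, the lowest flox and the highest knockout library for most of these genes, it was -2.19. VKO 1 against flox 2 gave the closest pair between the groups for 8 of the 9 genes, from a log2 ratio of -1.03 for Clps to -0.62 for Habp2.

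The sequence before the transcription start was available from RefSeq (GRCm38.p6) for 7 of the 9 genes, all but Clps and C1qtnf1. The 250 bases upstream of the RefSeq start of Itln1, Ang4, Rnase1 and Pnliprp2 are shown as the starts of the abundant lectin, both ribonucleases and the lipase. They are chr1:171535295-171535544, chr14:51773591-51773840 and chr14:51146768-51147017 on the minus strand and chr19:58759473-58759722 on the plus strand, each written in the direction of its gene. Capitals mark the motifs searched on both strands. These were CTTTGA for TCF and LEF factors, a first E-box with the letters CAGCTG, another E-box with the letters CATCTG, then AGATAA for GATA factors and TTTATG for CDX factors.
Itln1: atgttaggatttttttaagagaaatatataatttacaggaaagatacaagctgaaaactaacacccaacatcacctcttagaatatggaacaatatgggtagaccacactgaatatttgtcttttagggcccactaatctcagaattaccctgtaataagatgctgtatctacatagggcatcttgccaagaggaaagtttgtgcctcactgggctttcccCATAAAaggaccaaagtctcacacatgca
Ang4: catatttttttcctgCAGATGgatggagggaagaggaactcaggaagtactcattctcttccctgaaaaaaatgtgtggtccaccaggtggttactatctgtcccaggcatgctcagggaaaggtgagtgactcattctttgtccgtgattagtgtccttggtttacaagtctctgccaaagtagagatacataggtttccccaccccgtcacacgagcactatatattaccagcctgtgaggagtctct
Rnase1: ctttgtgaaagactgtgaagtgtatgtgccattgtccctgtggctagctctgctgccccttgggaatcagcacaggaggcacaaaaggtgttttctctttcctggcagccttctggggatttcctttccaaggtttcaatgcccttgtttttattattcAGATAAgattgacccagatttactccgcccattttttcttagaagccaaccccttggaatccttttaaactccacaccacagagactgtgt
Pnliprp2: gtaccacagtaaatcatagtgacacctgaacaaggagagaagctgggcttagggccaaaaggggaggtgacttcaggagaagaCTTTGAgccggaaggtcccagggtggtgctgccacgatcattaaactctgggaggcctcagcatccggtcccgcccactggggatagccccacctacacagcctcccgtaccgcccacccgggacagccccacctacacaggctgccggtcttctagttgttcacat

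No motif was in more than 2 of the 7 windows. CTTTGA was found in 1 of the 7 windows, that of Pnliprp2, and in 3797 of 27025 windows of all genes, or 14.0%. CAGCTG was in 0 of 7 and in 12.8% of all, CATCTG in 1 of 7, that of Ang4, and in 14.5% of all. AGATAA was in 1 of 7, that of Rnase1, and in 10.3% of all, and TTTATG in 2 of 7, those of Itln1 and Smim38, and in 11.1% of all. These are matches of letters and not sites, and nothing follows for the factors from a window without one.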

How the data were processed

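Total RNA of 6 crypt samples went through an mRNA library kit and was read from 1 end for 50 bases (DNBSEQ), per the labels' protocols, and mm10 is the build named in the submitters' processing notes. Neither aligner nor counter is given in the sources used here, nor is the strand setting. Deposited values were estimated counts per gene, not normalised, with 31.1% to 35.2% of values per library not whole. They were rounded to whole numbers for the tests. The labels name no molecular identifiers.

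Analysis used edgeR 4.0.16 in R 4.3.3 (filterByExpr, 12943 of 17526 genes kept, TMM, robust glmQLFit, glmQLFTest, Benjamini-Hochberg adjusted p under 0.05 over all genes), with limma 3.58.1 and DESeq2 1.42.0 as alternatives. CPM are TMM-scaled, SD is over n = 3 libraries, and fold changes are VKO over flox. Log2 CPM for likeness used a prior count of 2. Transcripts and positions came from GENCODE M21 (GRCm38, as mm10), matched by gene ID, and through a RefSeq synonym for Smim38. Python 3.11.15, pandas 2.3.3, numpy 2.4.6 and matplotlib 3.10.9 were used.

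The members and the 15 gene lists were chosen with earlier results of these data known. Named beside the members were the 3 most abundant tested genes of a list, any that passed, and for each member the 3 most alike genes. Genes of the T cell, crypt epithelium, mesenchyme and small integral membrane lists are given as sums or counts and not by name. Outside that rule are Bhlha15, Rab3d, Reg3b, Reg3g, Nrap, Ang2, Ang5, Ang6, Tpcn2, Gm9765, Gm11747, Gm14755, Ctrb1, Cel, Gp2 and the flanking genes Nip7, Terf2, Fkbp5, Srpk1 and Cd244a. The lists of small integral membrane proteins, mesenchyme and endothelium, and intelectins had 0 genes passing by edgeR, with 3 of 21, 1 of 5 and 0 of 0 tested lower at an unadjusted p under 0.05. Of the 12 T cell and 16 crypt epithelium markers tested, 0 passed by edgeR and DESeq2 called 5 and 2. Without adjustment 10 and 4 were lower and 0 and 1 higher. Shares over all tested genes were 2.64% called by DESeq2, and 9.63% lower and 4.09% higher without adjustment.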

Additional observations from a re-analysis of the deposited data

How the results depend on the processing

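The direction of all 9 members held in each of 144 combinations of gene and alternative, and 11 of these moved a value by more than the spread between libraries. The members were picked for that direction and their groups do not overlap, so the kept direction is no support. The range was -2.19 to -1.08 for Ang4, -2.24 to -1.36 for Itln1, -2.33 to -1.30 for Clps, -2.34 to -1.20 for Pnliprp2, -1.79 to -0.92 for Habp2, -2.33 to -1.34 for Rnase1, -2.10 to -1.25 for Tmed6, -1.48 to -0.97 for Smim38 and -1.83 to -1.19 for C1qtnf1. Chosen after seeing the data were leaving out floxed controls 1 and 3 (median of the members -1.20), leaving out floxed control 2 and knockout 1 (-2.19) and scaling on library totals, which moved the median of all genes to 0.205. Without single libraries the members' median ran from -1.98 to -1.40.

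The count of genes called was 2 by edgeR with TMM. It was 0 with DESeq2 size factors, 0 with TMM without the 50 most abundant genes, 342 by DESeq2, 67 with no filter beyond 1 count and 39 with the replicate block. Without single libraries it ran from 0 (VKO 1, VKO 3 or flox 3 left out) to 955 (flox 2 left out), with 11 without flox 1. It was 12 without floxed controls 1 and 3, 920 without floxed control 2 and knockout 1 and 13 on library totals. Among the list genes the calls were 0 by edgeR, 40 by DESeq2, 16 with no filter, 6 with the replicate block, 0 to 56 without single libraries (5 without flox 1 and 56 without flox 2), 3 without floxed controls 1 and 3, 57 without floxed control 2 and knockout 1 and 3 on library totals. Deviations of same-numbered libraries from their group means correlated at -0.177, -0.272 and 0.068. No VKO library was closest to the flox library of its own number, though flox 3 was closest to VKO 3. The highest correlation, 0.384, was between VKO 2 and flox 1. These values give no sign that the numbers pair the libraries, but they cannot exclude it. The cause of these shifts was not tested.

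Values near 0 changed sign. Crypt epithelium markers were at -0.05, and at 0.18 with plain CPM. On library totals Pla2g5 had 0.027, Lipa 0.13, Tmed2 0.15, Tmed10 0.13, Tmed7 0.12, C1qtnf12 0.057, Sec31a 0.048, Copa 0.082, Stxbp2 0.21 and Cela1 0.17. Stxbp2 had 0.0040 with DESeq2 size factors and by DESeq2, 0.0038 without the 50 most abundant genes, 0.012 with no filter and 0.044 without floxed control 2 and knockout 1, where Pla2g5 had 0.12 and F3 -0.20. Without floxed controls 1 and 3 Lipa had 0.47, Copa 0.016 and Reg1 -0.055. Without single libraries the ranges were -0.041 to 0.032 for Stxbp2, -0.30 to 0.097 for Lipa, -0.016 to 0.41 for F3, -0.29 to 0.25 for Cela1, -0.34 to 0.15 for Pla2g5 and -0.54 to 0.059 for C1qtnf6. C1qtnf1 and Smim38 rest on the fewest counts, 90 to 233 per library.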

Other observations

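The nearest tested genes on each side of the 9 in the genome were taken, but for Smim38 only Tpcn2, whose span holds it. These 15 genes outside the 9 had log2 fold changes from -1.70 to 0.88, VKO over flox, and their median was 0.06. None passed by edgeR over all genes (0 in either direction), DESeq2 called 4, and without adjustment 3 were lower and 2 higher at p under 0.05. Over all tested genes DESeq2 called 2.64%, and without adjustment 9.63% were lower and 4.09% higher. The 3 lower were Pnliprp1 and Ang, given above, and Cd244a, 23.4 kb from Itln1, with a log2 fold change of -1.20 ± 0.30 (adjusted p = 0.140 by edgeR). Nip7, 0.6 kb from Tmed6, averaged 29.5 ± 2.70 CPM in VKO and 28.6 ± 6.93 CPM in flox. Terf2, 3.8 kb from Tmed6 on its other side, averaged 42.9 ± 4.93 CPM in VKO and 36.3 ± 4.18 CPM in flox. Fkbp5, a glucocorticoid-responsive co-chaperone gene 72.1 kb from Clps, lay on the other side, at 168 ± 41.3 CPM in VKO and 91.1 ± 15.3 CPM in flox (log2 0.88 ± 0.21, adjusted p = 0.130 by edgeR). Srpk1, 26.9 kb from Clps, was the other gene higher without adjustment (log2 0.41 ± 0.15, adjusted p = 0.266 by edgeR). Nip7, Terf2, Fkbp5, Srpk1 and Cd244a were named after their values were seen.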
